A study of Homo sapiens with 8 samples.

Results

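The 36 genes described here act in homologous recombination and in the Fanconi anaemia pathway. They were listed because BRCA2, a core mediator of homologous recombination, was lower with eIF2A knockdown in HEK293T cells and higher with it in H9 cells, and the question was whether the rest of the pathway moved alike. BRCA2 was therefore selected on its own changes in these libraries, so its values are given as a description with no test, and every count of called genes is over the other 35 members. All 36 were found among the 19305 RefSeq accessions counted, and all 36 were among the 14565 genes that passed the filter on low counts. Transcript levels were measured by RNA sequencing of polyadenylated RNA in 8 libraries, 2 in each of 4 groups. HEK293T, a human embryonic kidney line, carried an eIF2A siRNA or a control siRNA, and both of these groups were treated with sodium arsenite, an oxidative stressor, so no HEK293T library here is unstressed. The H9 line of human embryonic stem cells carried an eIF2A shRNA or a control shRNA, and its labels name no arsenite. The labels give neither the sequence nor the number of the siRNAs and shRNAs, nor whether a group's 2 libraries were made from cultures grown apart. The p-values therefore speak for the spread between libraries, part or all of which may be technical.

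Homologous recombination copies the sequence of a sister chromatid to mend broken or stalled DNA. The MRE11, RAD50 and NBN complex with RBBP8 (CtIP) trims the broken ends, replication protein A (RPA1, RPA2 and RPA3) coats the exposed strand, and BRCA1, BARD1, PALB2 and BRCA2, with the group of RAD51B, RAD51C, RAD51D, XRCC2 and XRCC3, act on the coated strand to start the search for a template. In the Fanconi anaemia pathway a core complex with FANCL and the conjugating enzyme UBE2T attaches ubiquitin to FANCD2 and FANCI at crosslinks between DNA strands, and effectors such as SLX4 and BRIP1 then act on the lesion. Human embryonic stem cells divide fast with a short G1 phase and are known to lean on homologous recombination, and ATM and ATR are the kinases that signal breaks and stalled forks. eIF2A itself is a translation initiation factor able to bring initiator tRNA to the ribosome, and is not a subunit of the eIF2 complex.

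Base composition is shown early because the H9 changes of all genes ran with it. The transcripts of the 36 genes had a median GC content of 43.1%, against 50.5% for all genes tested, and a median length of 3645 nt, against 3032 nt for all genes tested. Among the other 35 members, GC content ran between 33.95% (RAD54B) and 62.89% (XRCC3), and length between 908 nt (UBE2T) and 13147 nt (ATM). The next lines give 150 coding bases taken from the middle of the longest coding exon of 5 members that span this range, with G and C in capitals, 5′ to 3′, from GENCODE release 29 transcripts of the GRCh38 build.

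BRCA2: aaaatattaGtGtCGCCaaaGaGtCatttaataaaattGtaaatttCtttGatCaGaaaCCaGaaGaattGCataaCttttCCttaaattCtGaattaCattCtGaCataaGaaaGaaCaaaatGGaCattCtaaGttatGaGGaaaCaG
ATM: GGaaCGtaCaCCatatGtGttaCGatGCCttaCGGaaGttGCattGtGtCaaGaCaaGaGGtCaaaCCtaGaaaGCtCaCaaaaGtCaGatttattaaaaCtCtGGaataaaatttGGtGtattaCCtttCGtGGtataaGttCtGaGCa
RPA1: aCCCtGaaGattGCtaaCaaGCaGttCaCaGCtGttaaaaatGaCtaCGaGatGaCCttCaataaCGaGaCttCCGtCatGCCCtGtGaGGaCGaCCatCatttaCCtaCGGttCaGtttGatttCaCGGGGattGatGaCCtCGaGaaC
FANCG: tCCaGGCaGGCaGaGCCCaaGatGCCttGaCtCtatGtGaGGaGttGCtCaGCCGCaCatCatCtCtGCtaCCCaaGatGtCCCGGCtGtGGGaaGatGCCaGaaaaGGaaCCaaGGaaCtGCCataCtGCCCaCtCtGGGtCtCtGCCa
XRCC3: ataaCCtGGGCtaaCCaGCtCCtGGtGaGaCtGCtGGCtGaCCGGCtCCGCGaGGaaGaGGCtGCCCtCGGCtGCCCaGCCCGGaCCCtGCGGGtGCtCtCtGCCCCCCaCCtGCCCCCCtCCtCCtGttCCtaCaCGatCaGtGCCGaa

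The BRCA2 stretch lies in exon 11 at chr13:32338656-32338805 on the plus strand and is 28.0% G and C, and the ATM stretch lies in exon 10 at chr11:108250812-108250961 on the plus strand and is 38.0%. The RPA1 stretch lies in exon 10 at chr17:1879236-1879385 on the plus strand and is 45.3%. The FANCG stretch lies in exon 10 at chr9:35075535-35075684 on the minus strand and is 56.0%, and the XRCC3 stretch lies in exon 10 at chr14:103698834-103698983 on the minus strand and is 67.3%. Runs of capitals are short and scattered in BRCA2 and ATM, and fill most of the XRCC3 line.

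Gene counts per library ranged between 21837052 and 32318668, and the 36 members together took 0.104 to 0.131% of them. EIF2A, the targeted gene, stood at 5.58 and 5.98 CPM (counts divided by the library's TMM-scaled size) with eIF2A siRNA, against 17.5 and 18.3 CPM with control siRNA in HEK293T, and at 5.03 and 4.67 CPM with eIF2A shRNA, against 15.8 and 14.8 CPM with control shRNA in H9. The stem cell gene LIN28A was at 2710 to 2980 CPM in the H9 libraries and at 0.157 CPM or less in the HEK293T libraries, NANOG was at 0 in HEK293T, POU5F1 was at 114 to 195 CPM in H9, and the kidney gene PAX2 was at 0.0987 CPM or less in H9 and at 4.91 to 6.19 CPM in HEK293T, so the labels of line and knockdown held in all 8 libraries. Reads assigned to no gene made up 20.84 and 20.63% of the eIF2A shRNA libraries and 18.84 and 18.39% of the H9 control libraries. In HEK293T they made up 14.98 and 14.95% of the eIF2A siRNA libraries and 15.59 and 17.68% of the control libraries. The 2 HEK293T control libraries differed more from each other than those of other groups, with a chi-square per degree of freedom of 4.91 between them, against 1.35 to 1.80 in the other groups, where 1 is sampling noise.

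BRCA2 stood at 1.088 and 1.002 CPM with eIF2A siRNA, against 2.439 and 2.765 CPM with control siRNA in HEK293T. These levels rest on 32 and 29 counts with eIF2A siRNA and on 56 and 88 counts with control siRNA. The log2 difference was -1.32 ± 0.22 (SE, n = 2 each), which leaves 39.9% of the control level. In H9, BRCA2 stood at 4.64 and 4.84 CPM with eIF2A shRNA, against 2.05 and 1.73 CPM with control shRNA, from 120 and 114 counts against 44 and 35 counts. The log2 difference there was 1.32 ± 0.19 (SE, n = 2 each), or 2.49-fold. The knockdown and control libraries did not overlap in either line. These are the values that chose the set, and nothing is read from them here. The RNA came from whole cultures, so fewer cells that express a gene and less of its RNA per cell cannot be told apart in any value that follows.

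**Figure D1:**
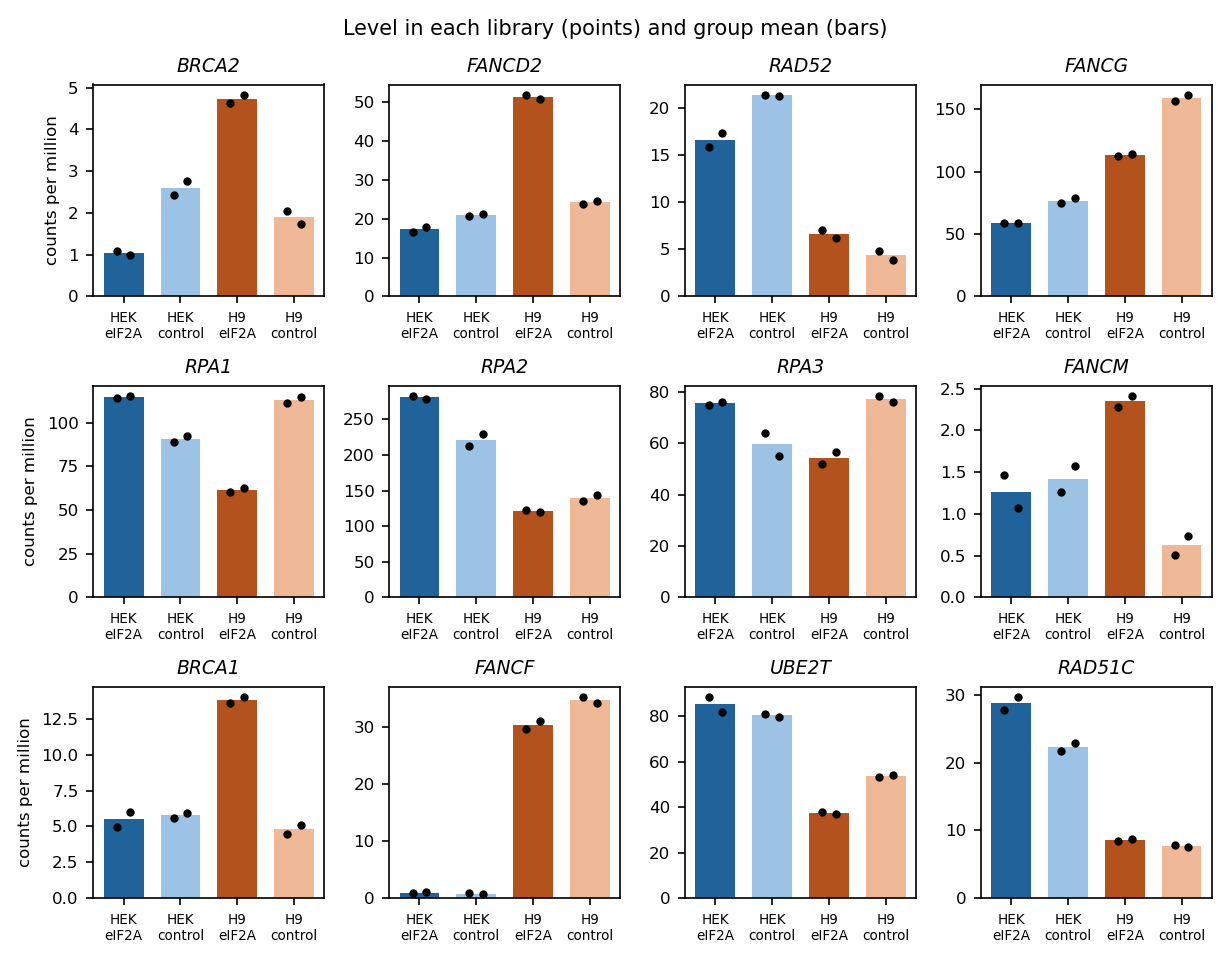
CPM of 12 members in each library (points) and the group mean (bars, n = 2), with each knockdown group left of its control. BRCA2 and FANCD2 are lower with eIF2A siRNA and higher with eIF2A shRNA than in their controls, whereas RPA1 is higher with eIF2A siRNA (114 and 116 CPM) and lower with eIF2A shRNA (60.1 and 62.4 CPM).

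In HEK293T under arsenite, the other members changed little and in mixed directions. A total of 4 of the 35 rose (edgeR quasi-likelihood F test, Benjamini-Hochberg adjusted p under 0.05) where 14.1% of all genes tested did, and 6 fell where 14.7% of all genes tested did. The median log2 change of the 35 was -0.10, beside -0.003 for all genes tested, and their range was -0.39 (FANCG) to 0.36 (RAD51C). No other member came near the BRCA2 difference, but BRCA2 was selected on that difference, so the gap follows in part from the choice. The plot of changes by gene shows the HEK293T points of all genes except BRCA2 within 0.4 of 0 as measured, and with the trend on GC content and length removed RAD51B lies just outside, at -0.41.

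**Figure D2:**
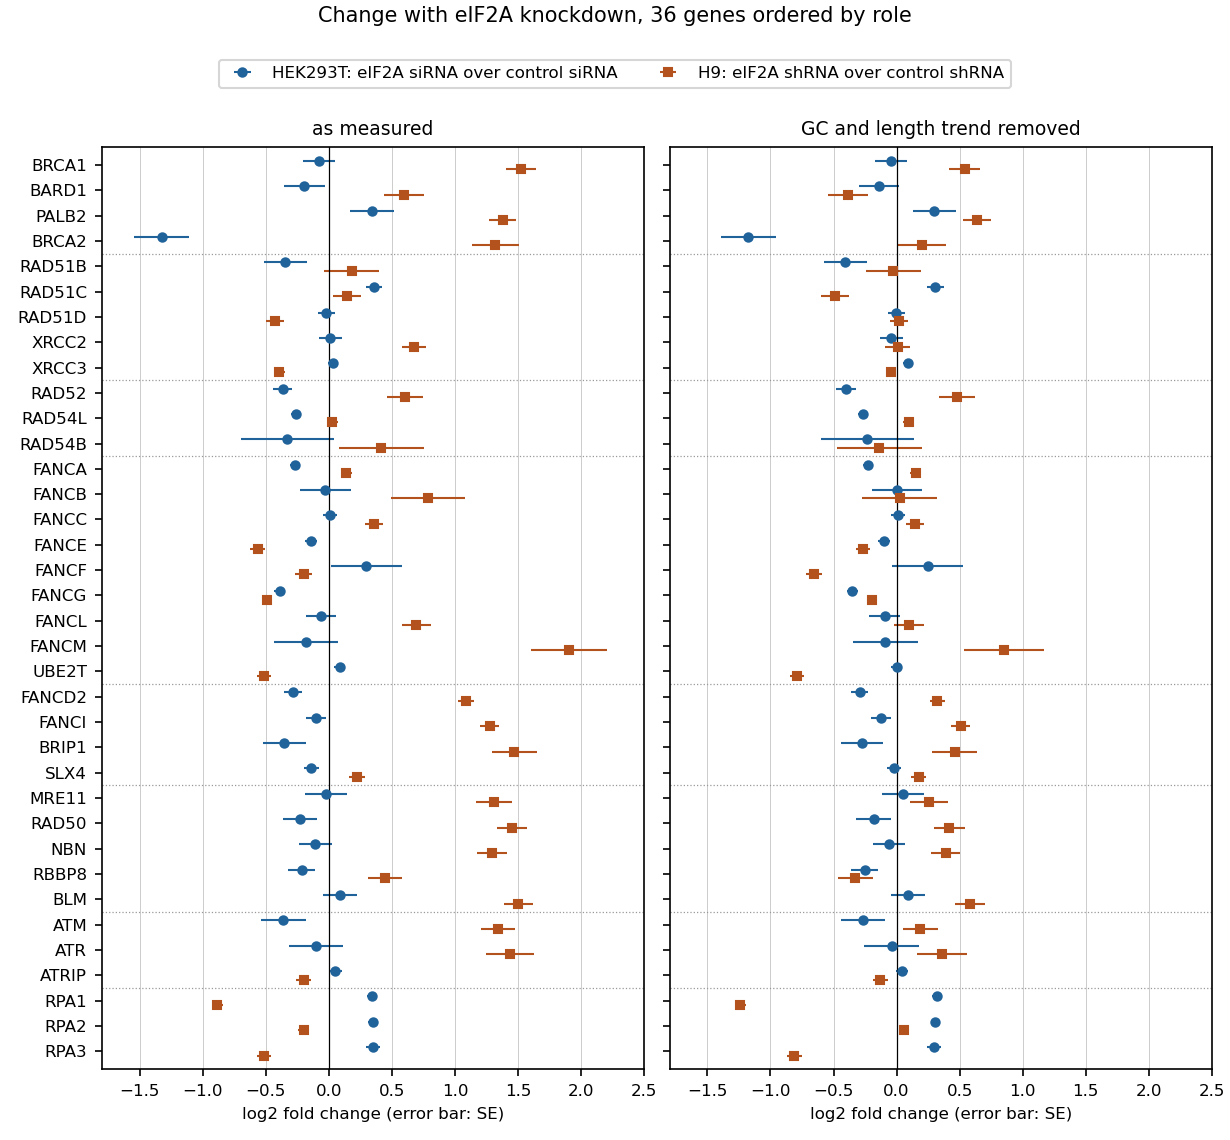
Log2 fold change with eIF2A knockdown ± SE for the 36 genes, ordered by role (dotted lines part the roles), as measured (left panel) and with the trend on GC content and length removed (right panel). HEK293T points stay near 0 except BRCA2 (-1.32 as measured), and the H9 points as measured reach 1.90 (FANCM) but only 0.85 once the trend is removed.

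All 3 subunits of RPA, the complex that coats exposed DNA strands, rose in HEK293T. RPA1 stood at 114 and 116 CPM with eIF2A siRNA and at 88.9 and 92.5 CPM with control siRNA, a log2 change of 0.34 ± 0.040 (SE, edgeR adjusted p = 4.2e-08), or 1.27-fold. RPA2 stood at 283 and 278 CPM with eIF2A siRNA and at 212 and 229 CPM with control siRNA, a log2 change of 0.35 ± 0.036 (edgeR adjusted p = 4e-09). RPA3 stood at 74.8 and 76.3 CPM with eIF2A siRNA and at 64.1 and 55.2 CPM with control siRNA, a log2 change of 0.35 ± 0.053 (edgeR adjusted p = 4.1e-06). The knockdown libraries lay above both controls for each subunit. Such separation, here and in the genes that follow, only restates the printed values. It was not counted over all genes and adds nothing to the test. RAD51C, which forms one complex with XRCC2 and another with XRCC3, was the other member that rose, with 27.7 and 29.7 CPM with eIF2A siRNA and 21.7 and 22.9 CPM with control siRNA (log2 change 0.36 ± 0.066, edgeR adjusted p = 6.2e-05). The other members of that group, RAD51B, RAD51D, XRCC2 and XRCC3, were not called and lay at -0.34, -0.02, 0.01 and 0.03.

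The members that fell in HEK293T were spread over the Fanconi core complex, FANCD2 and the factors that anneal or remodel strands. FANCG, a core subunit, stood at 58.5 and 58.8 CPM with eIF2A siRNA and at 75.0 and 78.6 CPM with control siRNA, a log2 change of -0.39 ± 0.044 (edgeR adjusted p = 1.4e-08) that left 76.3% of the control level. RAD52, which anneals complementary strands, stood at 15.9 and 17.4 CPM with eIF2A siRNA and at 21.5 and 21.3 CPM with control siRNA, a log2 change of -0.37 ± 0.078 (edgeR adjusted p = 0.00039). FANCD2 stood at 16.6 and 17.9 CPM with eIF2A siRNA and at 20.8 and 21.2 CPM with control siRNA, a log2 change of -0.28 ± 0.069 (edgeR adjusted p = 0.0017). In these 3 genes both knockdown libraries lay under both controls. FANCA and RAD54L, a motor protein that moves along DNA, fell by 0.27 and 0.26 on the log2 scale. FANCE fell by 0.14 (edgeR adjusted p = 0.029), but the call was lost when either HEK293T eIF2A siRNA library, HEK293T control replicate 1 or H9 control replicate 1 was left out, with values of -0.07 to -0.17 and adjusted p of 0.051 to 0.34. The partners of BRCA2 did not pass the test: BRCA1 lay at -0.08, BARD1 at -0.20 and PALB2 at 0.34 (edgeR adjusted p = 0.7, 0.41 and 0.15). None of the 5 end resection members and none of the 3 checkpoint members passed it either, with ranges of -0.23 to 0.09 and of -0.36 to 0.05 by edgeR. At an unadjusted edgeR p under 0.05 these numbered 0 and 1 (ATM), where 5466 of all 14565 genes tested passed. DESeq2 and limma-voom called no end resection or checkpoint member either, with ATR given no adjusted p by DESeq2. Removing the trend on GC content and length left 4 rises (background 14.9%) and 5 falls (background 12.9%), with FANCE no longer called (edgeR adjusted p = 0.12). Without HEK293T control replicate 2, more members fell in that fit, while fewer of all genes tested did. RPA3 rose there by 0.16 in place of 0.29.

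In H9, most members rose and a smaller group fell. A total of 21 of the 35 rose where 37% of all genes tested did, and 10 fell where 34.3% of all genes tested did (edgeR, adjusted p under 0.05). The median log2 change of the 35 was 0.44, beside 0.024 for all genes tested, and the range was -0.88 (RPA1) to 1.90 (FANCM). By comparison, BRCA2 at 1.32 lay inside the range of the other rises. With DESeq2's size factors the median of all genes in H9 moved to -0.126 and that of the 35 members to 0.285, so that small H9 changes are read against these medians. The split of all genes between higher and lower calls was 5389 to 4991 as measured and 4008 to 5566 with DESeq2.

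The rises in H9 covered the BRCA complex, the FANCD2 and FANCI pair with its effectors, end resection and the 2 kinases. FANCM, a translocase that anchors the Fanconi core complex on DNA, stood at 2.28 and 2.42 CPM with eIF2A shRNA and at 0.513 and 0.741 CPM with control shRNA, a log2 change of 1.90 ± 0.30 (SE, edgeR adjusted p = 8.7e-07). Its control level rests on only 11 and 15 counts. BRCA1 stood at 13.6 and 14.0 CPM with eIF2A shRNA and at 4.48 and 5.13 CPM with control shRNA, a log2 change of 1.53 ± 0.12 (edgeR adjusted p = 1.8e-13), or 2.88-fold. BLM, the helicase that unwinds joined recombination intermediates, stood at 17.2 and 15.3 CPM with eIF2A shRNA and at 6.06 and 5.38 CPM with control shRNA, a log2 change of 1.503 ± 0.12 (edgeR adjusted p = 1.3e-13). Both knockdown libraries lay well above both controls in these 3 genes. PALB2, the bridge between BRCA1 and BRCA2, stood at 16.9 and 17.9 CPM with eIF2A shRNA and at 7.32 and 6.02 CPM with control shRNA, a log2 change of 1.38 ± 0.11 (edgeR adjusted p = 1.6e-13).

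Further H9 rises between 1 and 1.5 on the log2 scale were those of the helicase BRIP1 (1.47), RAD50 (1.45), the kinases ATR (1.44) and ATM (1.34), MRE11 (1.31), NBN (1.30), FANCI (1.27) and FANCD2 (1.09). FANCD2 stood at 52.0 and 50.8 CPM with eIF2A shRNA, against 23.9 and 24.5 CPM with control shRNA. Smaller rises were those of FANCB (0.78), FANCL (0.69), XRCC2 (0.68), RAD52 (0.60), BARD1 (0.60), RBBP8 (0.44), FANCC (0.36), SLX4 (0.23) and FANCA (0.14). RAD52 stood at 7.07 and 6.23 CPM with eIF2A shRNA, against 4.85 and 3.9 CPM with control shRNA. FANCB (0.41), BARD1 (0.35) and RBBP8 (0.35) lost the call without H9 control replicate 2, FANCB (0.69) and RBBP8 (0.35) also without H9 eIF2A shRNA replicate 2, and FANCA (0.10) without H9 control replicate 1. With DESeq2's size factors FANCA turned to -0.02, and SLX4 (0.07) and RBBP8 (0.29) were no longer called, and DESeq2 itself also did not call FANCC (0.20, adjusted p = 0.055).

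The H9 falls held all of RPA, the conjugating enzyme UBE2T and part of the Fanconi core. RPA1 stood at 60.1 and 62.4 CPM with eIF2A shRNA and at 112 and 115 CPM with control shRNA, a log2 change of -0.88 ± 0.044 (edgeR adjusted p = 1.3e-18) that left 54.2% of the control level. FANCE stood at 35.8 and 35.03 CPM with eIF2A shRNA and at 53.5 and 51.3 CPM with control shRNA, a log2 change of -0.56 ± 0.058 (edgeR adjusted p = 1.2e-10). UBE2T stood at 38.0 and 37.1 CPM with eIF2A shRNA and at 53.3 and 54.2 CPM with control shRNA, a log2 change of -0.52 ± 0.055 (edgeR adjusted p = 2.4e-10). RPA3 stood at 52.1 and 56.5 CPM with eIF2A shRNA and at 78.6 and 76.1 CPM with control shRNA, a log2 change of -0.51 ± 0.056 (edgeR adjusted p = 8.7e-10). In these 4 genes the knockdown libraries lay under both controls. FANCG fell by 0.49, with 113 and 114 CPM with eIF2A shRNA and 156 and 162 CPM with control shRNA, and RAD51D and XRCC3 fell by 0.43 and 0.39. RPA2, FANCF and ATRIP, the partner of ATR, each fell by 0.20, and under upper-quartile scaling FANCF and ATRIP (both -0.13) were no longer called. FANCF also lost the call without H9 control replicate 1 (-0.17) or H9 eIF2A shRNA replicate 1 (-0.17). RAD51B (0.18), RAD51C (0.14), RAD54B (0.42) and RAD54L (0.03) were not called, and RAD54L turned to -0.13 with DESeq2's size factors.

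The H9 changes followed base composition and length closely. Across the 35 members, the rank correlation of the H9 log2 change with transcript GC content was -0.71 and with transcript length 0.70, and across 14489 genes these were -0.68 and 0.45. With the trend described next removed, the values over the 35 members were still -0.29 with GC content and 0.58 with length, beside -0.07 and 0.04 across the 14489 genes, so the members' remaining changes still ran with length. Genes share the same libraries and are not replicates. In HEK293T the values over the 35 members as measured were 0.12 and -0.27. Of the 14 members under 42% GC, 13 rose in H9, with a median log2 change of 1.32 beside 0.93 for all 2886 genes in that range, of which 78.6% rose and 3.81% fell. Of the 11 members between 42 and 50% GC, 5 rose and 4 fell, with a median of 0.18 beside 0.47 for all 4118 genes in that range, of which 57.7% rose and 13.8% fell. Of the 10 members over 50% GC, 3 rose and 6 fell, with a median of -0.20 beside -0.31 for all 7485 genes in that range, of which 9.77% rose and 57.3% fell. The share of reads assigned to no gene was also higher with eIF2A shRNA than with control shRNA in H9, and its part in these changes was not tested.

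**Figure D3:**
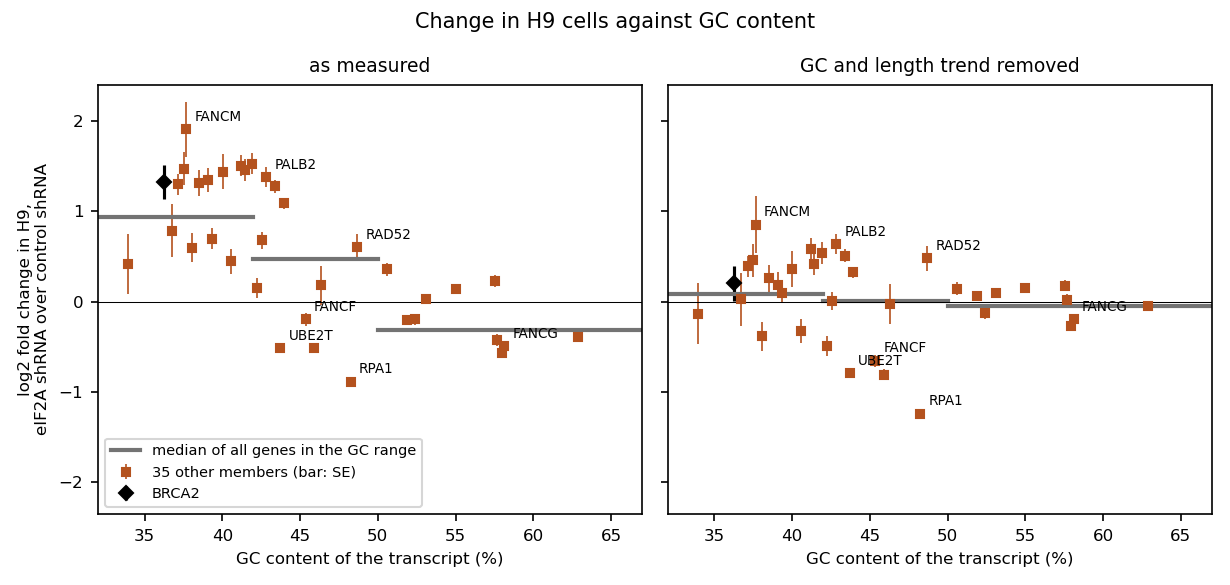
H9 log2 fold change ± SE of each member against transcript GC content, as measured (left panel) and after removal of the GC and length trend (right panel), with grey lines at the median of all genes under 42%, between 42 and 50% and over 50% GC. As measured the members under 42% GC lie around 1.32 and those over 50% around -0.20, and with the trend removed RPA1 (-1.24) and FANCM (0.85) are farthest from 0.

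A trend on GC content and length, fitted over all genes in each library, gave 27 of the 35 members a positive expected H9 change and 8 a negative one, between -0.44 (RAD51D) and 1.16 (ATM). For BRCA2 the expected H9 change was 1.12, which left 0.20 of its 1.32, while in HEK293T the trend gave -0.15 and left -1.18. With the trend removed, 12 of the 35 rose in H9 where 21.1% of all genes tested did, and 9 fell where 29% of all genes tested did. The median of the 35 was 0.09, beside -0.024 for all genes tested. For 26 of the 35 the expected part was larger than the remainder. Neither this nor the sign of the expected change was counted over all genes, so neither is read as particular to the members.

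With the trend removed, the H9 rises that kept their call under each alternative run were PALB2 (0.64 ± 0.11, edgeR adjusted p = 5.1e-06), BLM (0.59 ± 0.12, 7.5e-05), BRCA1 (0.54 ± 0.12, 0.00039), FANCI (0.51 ± 0.074, 3.2e-07) and FANCD2 (0.32 ± 0.062, 2.9e-05). FANCM had the largest rise, at 0.85 ± 0.32 (edgeR adjusted p = 0.025), but it lost the call without either H9 eIF2A shRNA library or H9 control replicate 1, where it stood at 0.55 to 0.88 with adjusted p of 0.053 to 0.29. The rises of RAD52 (0.48), BRIP1 (0.46), RAD50 (0.42), NBN (0.39), SLX4 (0.17) and FANCA (0.15) were each lost in at least 1 such fit with a library left out. BRIP1 lay lowest there, at 0.26 without H9 eIF2A shRNA replicate 2. Without H9 control replicate 1, fewer members rose in this fit, and fewer of all genes tested did so too. The kinases were no longer called, with ATM at 0.19 and ATR at 0.36 (edgeR adjusted p = 0.27 and 0.14), nor were MRE11 (0.26), FANCL (0.10), FANCC (0.14), FANCB (0.02) and XRCC2 (0.01).

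The falls of RPA1 and RPA3 in H9 were larger with the trend removed. RPA1 fell by 1.24 ± 0.043 (edgeR adjusted p = 8.8e-24), to 42.4% of what its GC content and length gave, and RPA3 fell by 0.81 ± 0.060 (edgeR adjusted p = 6.8e-12). UBE2T fell by 0.79 ± 0.054 (edgeR adjusted p = 3.7e-15) and FANCF by 0.66 ± 0.066 (edgeR adjusted p = 1e-10). RAD51C fell by 0.49 (edgeR adjusted p = 0.00033), FANCE by 0.27 and FANCG by 0.20, and these 7 falls kept their call under each alternative run. BARD1 fell by 0.39 and RBBP8 by 0.33 (edgeR adjusted p = 0.044 each), and both lost the call without H9 control replicate 1, where BARD1 stood at -0.11 and RBBP8 at -0.25. They also lost it without H9 eIF2A shRNA replicate 1, BARD1 without replicate 2 of that group and RBBP8 without H9 control replicate 2. RPA2 lay at 0.06 with the trend removed (edgeR adjusted p = 0.17), and at -0.18 where the trend was fitted on GC content alone (edgeR adjusted p = 0.00014), so that its sign depends on whether length is in the trend. RAD51D (0.02), XRCC3 (-0.05) and ATRIP (-0.13) were no longer called.

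The change in H9 and the change in HEK293T were then compared gene by gene, as the H9 change minus the HEK293T change. As measured, 21 of the 35 members lay higher in this difference where 31.1% of all genes tested did, and 8 lay lower where 27% of all genes tested did. With the trend removed, 11 lay higher where 17.6% of all genes tested did, and 6 lay lower where 24.9% of all genes tested did. The split of all genes as measured was 4532 higher to 3935 lower, and 3730 to 5051 with DESeq2's size factors. Among the differences that passed the test with the trend removed, the largest were those of RPA1 (-1.56 ± 0.058, edgeR adjusted p = 3.2e-22) and RPA3 (-1.11 ± 0.083, 1.4e-11), followed by FANCF (-0.90), RAD52 (0.88), RAD51C (-0.80) and UBE2T (-0.79). FANCM lay at 0.94 but did not pass (edgeR adjusted p = 0.065). Line, arsenite and siRNA against shRNA differ together between the 2 comparisons and cannot be told apart.

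The direction of BRCA2, lower in HEK293T and higher in H9, was shared by 3 of the other 35 members, FANCA, RAD52 and FANCD2, in both fits. Of all genes tested, 3.19% showed it as measured and 2.81% with the trend removed. FANCD2 changed by 1.09 in H9 and by -0.28 in HEK293T as measured, and by 0.32 and -0.29 in those lines with the trend removed. RAD52 changed by 0.60 in H9 and by -0.37 in HEK293T as measured, and by 0.48 and -0.40 with the trend removed, where its H9 call was lost without H9 eIF2A shRNA replicate 1 or H9 control replicate 2. FANCA changed by 0.14 in H9 and by -0.27 in HEK293T as measured, and its H9 direction turned to -0.02 with DESeq2's size factors. With the trend removed FANCA changed by 0.15 in H9 and by -0.23 in HEK293T, and its H9 call was lost without H9 control replicate 1 (0.12, edgeR adjusted p = 0.084). The HEK293T fall of each of these 3 genes was smaller on the log2 scale than the BRCA2 difference of -1.32. That difference is among the values that chose the set, so nothing is read from this gap.

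The opposite direction, higher in HEK293T and lower in H9, was shown as measured by RPA1, RPA2 and RPA3, and by 5.81% of all genes tested. With the trend removed it was shown by RPA1, RPA3 and RAD51C, and by 7.14% of all genes tested. FANCG and FANCE fell in both lines as measured, where 8.74% of all genes tested did, and FANCG did so with the trend removed as well, where 5.08% did. No member rose in both lines in either fit by edgeR, nor at an unadjusted p under 0.05 (0 in each fit), nor as measured by DESeq2 or limma-voom. By edgeR at an adjusted p under 0.05, 5.19% of all genes tested rose in both lines as measured and 2.53% with the trend removed. The share of all genes at the unadjusted p was not counted. The plot of H9 against HEK293T changes places the RPA genes at the lower right as measured. With the trend removed RPA2 lies just above 0 in H9, at 0.06. BRCA2, selected on its own changes, lies alone at the far left.

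**Figure D4:**
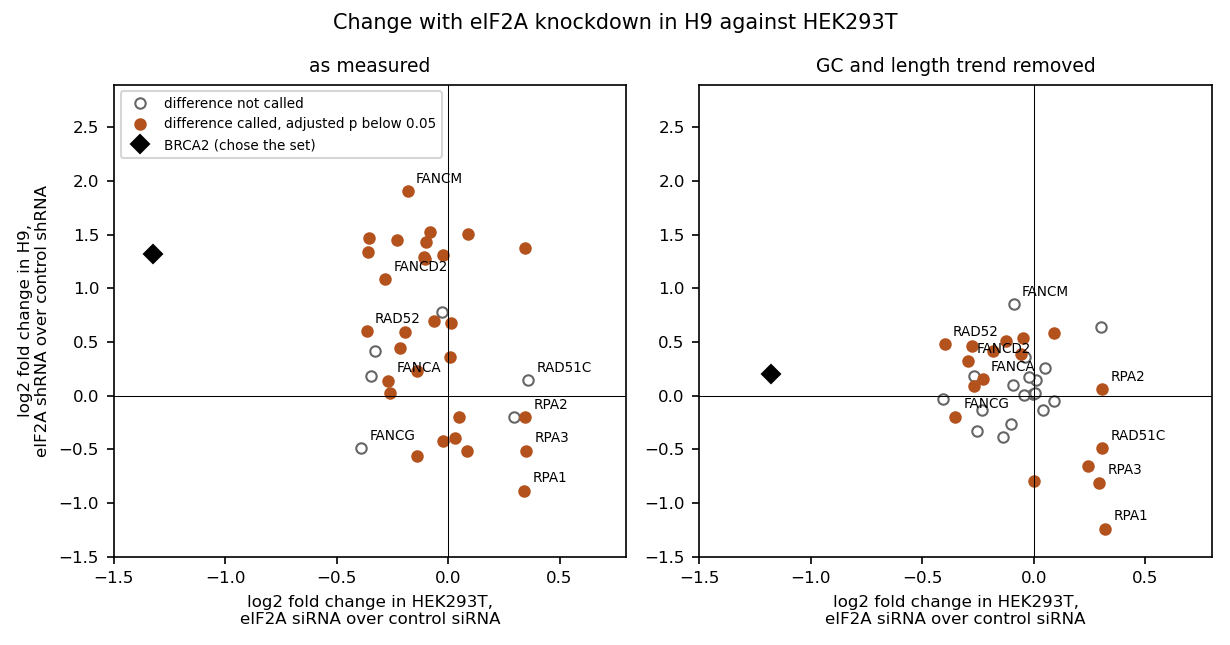
H9 log2 fold change against HEK293T log2 fold change of the 36 members, as measured (left panel) and with the trend removed (right panel), with filled circles where the difference between the lines passed the test. BRCA2 (diamond, -1.32 in HEK293T as measured), whose changes chose the set, lies apart from the other members on the HEK293T axis. RPA1 and RPA3 lie at the lower right in both panels.

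Genes of the same and neighbouring pathways were counted beside the members. The counts that follow stand beside shares of all genes tested that rose and fell of 37 and 34.3% in H9 as measured, of 21.1 and 29% in H9 with the trend removed, and of 14.1 and 14.7% in HEK293T as measured. Of 48 other homologous recombination and Fanconi genes tested, 24 rose and 20 fell in H9 as measured (median 0.20), and 11 rose and 14 fell with the trend removed (median -0.08). In HEK293T 5 of these rose and 8 fell as measured (median -0.04). The 3 with the smallest p in H9 were the histone variant H2AX (-0.63), MAD2L2 (-0.51) and CENPX (-0.71). With the trend removed H2AX lay at -0.175 (edgeR adjusted p = 4e-05). MAD2L2 turned to 0.11 (edgeR adjusted p = 0.0054) and CENPX lay at -0.09 (edgeR adjusted p = 0.092) in that fit. The 3 with the smallest p in HEK293T were TONSL (-0.49), which acts at stalled forks, the nuclease MUS81 (-0.40) and H2AX (-0.27).

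Of 15 end joining genes tested, 9 rose and 3 fell in H9 as measured (median 0.66), and 5 rose and 4 fell with the trend removed (median 0.06). PRKDC, the catalytic subunit of DNA-dependent protein kinase, changed as BRCA2 did in direction, with 1.68 in H9 and -0.50 in HEK293T as measured, and 0.83 in H9 and -0.45 in HEK293T with the trend removed. TP53BP1 rose by 1.16 and XRCC5 by 0.66 in H9 as measured, and XRCC5 lay at -0.03 with the trend removed. The 15 genes lay between -0.66 and 0.98 in H9 in that fit. In HEK293T 3 of the 15 rose and 2 fell, among them PARP1 (0.19) and LIG3 (-0.22).

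Homologous recombination takes place mostly in S and G2 phase, and genes of these phases were mixed in direction. Of 18 S phase genes, 9 rose and 6 fell in H9 as measured and 6 rose and 6 fell with the trend removed. MCM6 (0.91), RRM2 (0.66) and MCM5 (-0.42) had the smallest p as measured. With the trend removed the S phase genes lay between -0.53 and 0.22 in H9. Of 18 G2 and mitosis genes, 12 rose and 4 fell in H9 as measured and 8 rose and 5 fell with the trend removed. UBE2C (-0.73), KIF23 (1.57) and MKI67 (1.49) came first by p as measured. The G2 and mitosis genes lay between -0.53 and 0.88 in H9 with the trend removed. In HEK293T 6 S phase genes rose and 4 fell, led by CDC45 (-0.40), E2F1 (-0.24) and RRM1 (0.30), and 7 G2 and mitosis genes rose and 4 fell, led by CCNB1 (0.29), TOP2A (-0.52) and AURKA (0.17). The summed level of the S phase genes was 3890 CPM in both H9 eIF2A shRNA libraries and 4040 and 4090 CPM in the H9 control libraries, and that of the G2 and mitosis genes was 2170 and 2180 CPM with eIF2A shRNA and 2410 and 2420 CPM with control shRNA. Their part in the members' changes was not tested.

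Markers of other cell types were summed as well. The 11 measured pluripotent markers summed to 5700 and 5790 CPM with eIF2A shRNA and to 6010 and 6020 CPM with control shRNA in H9. Mesoderm and endoderm markers, with KDR the highest, summed to 73.6 and 68.6 CPM with eIF2A shRNA and to 35 and 35.8 CPM with control shRNA, neural markers to 639 and 627 CPM with eIF2A shRNA and to 579 and 599 CPM with control shRNA, and fibroblast markers, with THY1 the highest, to 878 and 891 CPM with eIF2A shRNA and to 1010 CPM in both H9 control libraries. Trophoblast markers summed to 20.3 and 20.9 CPM with eIF2A shRNA and to 26.9 and 27.4 CPM with control shRNA, with CDX2 and HAND1 at 0 in both groups, and embryonic kidney markers to 78.4 and 82.2 CPM with eIF2A shRNA and to 63.9 and 60.1 CPM with control shRNA. A sum can hide its list. As measured in H9, 6 of 11 pluripotent genes tested rose and 4 fell, and 2 of 6 mesoderm and endoderm genes rose and 1 fell. Of 7 neural genes 3 rose and 3 fell, and of 5 fibroblast genes 2 rose and 1 fell (median 0.08). Of 7 trophoblast genes 2 rose and 1 fell, and of 8 kidney genes 2 rose and 1 fell. Of all genes tested 37% rose and 34.3% fell. With the trend removed 3 pluripotent genes rose and 7 fell in H9, 2 mesoderm and endoderm genes rose and 0 fell, and 1 neural gene rose and 3 fell. In that fit 2 fibroblast genes rose and 1 fell, 1 trophoblast gene rose and 1 fell, and 2 kidney genes rose and 1 fell. Of all genes tested 21.1% rose and 29% fell there. In HEK293T the pluripotent markers summed to 174 CPM in both eIF2A siRNA libraries and to 184 and 187 CPM in the control libraries, and the embryonic kidney markers to 241 and 245 CPM with eIF2A siRNA and to 226 and 238 CPM with control siRNA. The part of these cell types in the members' changes was not tested.

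The members also differed between the lines before knockdown. Of the 35, 8 were higher in H9 controls than in HEK293T controls where 42.3% of all genes tested were, and 17 were lower where 41.2% of all genes tested were. With the trend removed 7 were higher where 35.6% of all genes tested were, and 18 were lower where 49.1% were. FANCF, a small core subunit that links the subcomplexes, stood at 35.3 and 34.3 CPM in H9 controls and at 0.958 and 0.723 CPM in HEK293T controls, a 42.1-fold difference (log2 5.40 ± 0.13, edgeR adjusted p = 4.2e-29). The HEK293T level rests on 22 and 23 counts in the controls and on 26 and 33 counts with eIF2A siRNA, so a knockdown change of FANCF was hardly measurable there. PALB2 was 2.81-fold higher in H9 controls (log2 1.49 ± 0.16), and FANCG was higher by 1.05. RAD52 stood at 4.85 and 3.9 CPM in H9 controls and at 21.5 and 21.3 CPM in HEK293T controls, a log2 difference of -2.28 ± 0.11 (edgeR adjusted p = 5.1e-20). RAD51C (-1.54), FANCB (-1.28), FANCM (-1.20) and FANCA (-0.98) were also lower in H9 controls. BRCA2 lay at -0.47, given with no test. Line, arsenite and siRNA against shRNA cannot be told apart in this comparison.

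Levels per length were then ranked among the 36 members, as CPM per kb of transcript. RPA2 was highest in all 4 groups, at 227 and 178 CPM per kb with eIF2A siRNA and control siRNA in HEK293T and at 98.0 and 112 CPM per kb with eIF2A shRNA and control shRNA in H9. UBE2T came next in HEK293T (94.1 CPM per kb with eIF2A siRNA and 88.6 with control siRNA), and FANCG came next in H9 (43.0 CPM per kb with eIF2A shRNA and 60.5 with control shRNA). BRCA2 was last of the 36 with eIF2A siRNA, at 0.0951 CPM per kb against 0.237 CPM per kb with control siRNA, and second to last in both H9 groups, at 0.431 CPM per kb with eIF2A shRNA and 0.172 CPM per kb with control shRNA. FANCM was last in the other 3 groups. BRCA2, ATM, ATR and FANCM, which code for very large proteins, were the lowest per length in the control groups of both lines. Counts of a member in a library ran between 11 (FANCM) and 8333 (RPA2).

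Counts of some members may hold reads of a neighbour. By GENCODE release 29, 20 of the 36 members share exonic bases with a protein-coding, antisense or lincRNA gene outside the set, and 15 with a protein-coding one. Overlaps with other gene types or between members were not checked. The largest shares of a member's exonic bases were those of RAD50 with the readthrough gene AC116366.3 on the same strand (79.7%), XRCC3 with KLC1 on the opposite strand (76.7%), RAD54B with FSBP on the same strand (59.1%), ATRIP with TREX1 on the same strand (27.9%), RAD54L with LRRC41 (25.1%) and FANCA with ZNF276 (23.6%) on the opposite strand. The strand setting of the count is not given, so these genes and their partners cannot be told apart where they overlap. Pseudogenes annotated for FANCD2, MRE11, RBBP8 and RPA2 may also share reads with them.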

How the data were processed

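TRIzol and the TruSeq Stranded mRNA kit were used, per the labels' protocols. Per the submitters' processing notes, the tools were cutadapt and STAR 2.5.2b and the build was hg19. The counting program, with its strand setting and annotation, is not given in the sources used here. Deposited were raw counts for each RefSeq accession with no normalization by the authors, as whole numbers and unequal totals show. Each table lists 19305 accessions and 5 special counters, which were left out of library sizes and tests. Names came from a RefSeq gene table for 18888 accessions and from GENCODE tables for 225, and 192 stayed unnamed. Where several accessions carried 1 symbol, the one with the most counts was used.

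The test was that of edgeR 4.0.16 under R 4.3.3: filterByExpr, TMM scaling, 4 group means over all 8 libraries with 4 residual degrees of freedom, the robust quasi-likelihood F test (two-sided) and Benjamini-Hochberg adjustment over all genes tested, with calls at an adjusted p under 0.05. SE was taken from the F statistic. In the fit called trend removed, offsets for each library came from splines with 5 degrees of freedom in transcript GC content and log2 length (GENCODE release 29, GRCh38, matched by accession or symbol), and 76 genes tested with no length took the median values. Levels are CPM with TMM factors. The fits were tested on simulated data before use.

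The members and lists were chosen with earlier results of these data known. All 36 members are accounted for; values in every library are given for BRCA2 and for up to 3 called members with the largest rise and fall in each comparison and fit, with others added beside them after their values were seen. From each other list up to 3 called members with the smallest p are named, and EIF2A, POU5F1, LIN28A and PAX2 check the labels. SHLD3 and TDGF1 matched no accession, and SLX1A was not tested. The alternatives were DESeq2 size factors, upper-quartile scaling, DESeq2 1.42.0, limma-voom (limma 3.58.1), no filter, a filter of 5 CPM in 2 libraries or more, fits within 1 line (4 libraries), a block for the set number, leaving out each library, an adjusted p under 0.01, a trend on GC content alone and splines with 3 degrees of freedom. The comparison of controls with the trend removed was added after seeing the data. Ribosome profiling of the study is not analysed here.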

Additional observations from a re-analysis of the deposited data

Results flagged for a closer look

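The change with knockdown differed between the lines in many members, by the edgeR test of the difference itself (H9 change minus HEK293T change, log2, adjusted p under 0.05); a positive value means a higher change in H9. In the BRCA complex the difference was 1.61 for BRCA1, 0.79 for BARD1 and 1.03 for PALB2. Among RAD51B, RAD51C, RAD51D, XRCC2, XRCC3 and the annealing and remodelling factors it was -0.4 for RAD51D, 0.66 for XRCC2, -0.42 for XRCC3, 0.97 for RAD52 and 0.29 for RAD54L. In the Fanconi pathway it was 0.41 for FANCA, 0.35 for FANCC, -0.43 for FANCE, 0.76 for FANCL, 2.09 for FANCM, -0.6 for UBE2T, 1.37 for FANCD2, 1.38 for FANCI, 1.82 for BRIP1 and 0.36 for SLX4. For end resection, BLM and the checkpoint members it was 1.33 for MRE11, 1.68 for RAD50, 1.4 for NBN, 0.66 for RBBP8, 1.41 for BLM, 1.7 for ATM, 1.54 for ATR and -0.25 for ATRIP. For the RPA subunits it was -1.22 for RPA1, -0.55 for RPA2 and -0.86 for RPA3. These are 29 members.

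Of the BRCA complex, the difference with the trend removed passed the test at 0.59 for BRCA1. Of these and the annealing and remodelling factors it did so at -0.8 for RAD51C, 0.88 for RAD52 and 0.36 for RAD54L. Of the Fanconi pathway it did so at 0.38 for FANCA, -0.9 for FANCF, 0.16 for FANCG, -0.79 for UBE2T, 0.62 for FANCD2, 0.63 for FANCI and 0.73 for BRIP1. Of the end resection members and BLM it did so at 0.6 for RAD50, 0.45 for NBN and 0.49 for BLM. All of RPA did so, at -1.56 for RPA1, -0.25 for RPA2 and -1.11 for RPA3. These are 17 members. Of the 17 members, RAD51C, FANCF and FANCG had not passed as measured, where they lay at -0.21, -0.50 and -0.10 (edgeR adjusted p = 0.16, 0.14 and 0.15). Line, arsenite and siRNA against shRNA differ together in each of these values, and their parts were not tested.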

How the results depend on the processing

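Of 234 recomputed counts of called members over 14 count results, 231 lay within 1.5 times the value reported. The exceptions were 3 counts in the fit with the trend removed. At an adjusted p under 0.01, 7 members in place of 11 lay higher in the difference between the lines. Of all 14565 genes, 1826 in place of 2562 did so. The counts over all genes moved as well in the runs with a library left out. With 1 library left out at a time, the members that fell in HEK293T numbered 5 to 8, with 8 without HEK293T control replicate 2, and the members that rose in H9 numbered 7 to 13, with 7 without H9 control replicate 1. The H9 direction of RAD54L turned to -0.131 (edgeR adjusted p = 0.0091 with DESeq2's size factors, and 0.037 by DESeq2), and that of FANCA to -0.021 (adjusted p = 0.7 by edgeR with those factors and 0.77 by DESeq2), both as measured. Those factors lower the median of all H9 changes to -0.126. The H9 change of RPA2 with the trend removed turned to -0.182 with the trend on GC content alone, which leaves length out.

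Single members gave the same call in 2280 recomputed values, a weaker one in 56, a stronger one in 27 and a moved value without a call in 64. The direction was reversed in 5 values, those of RAD54L, FANCA and RPA2 given above. No pairing by set number was seen: deviations of same-numbered libraries from their group means correlated over genes at -0.02 in HEK293T and at 0 in H9. With 2 libraries a group this check cannot exclude a pairing. With the set number as a replicate block, 4 members rose and 6 fell in HEK293T as measured (1899 and 1948 of all 14565 genes). In H9 21 rose and 10 fell as measured (5342 and 4939 of all genes). With the trend removed 4 rose and 6 fell in HEK293T (2030 and 1747 of all genes). In H9 12 rose and 9 fell in that fit (3017 and 4154 of all genes). The filter of at least 5 CPM left 31 of the 35 members, and the difference between the lines has no fit within a line. With 2 libraries a group, a lone library left after another is taken out is assumed to vary like the other groups. Depth limits FANCM, RAD54B, FANCB, BRCA2 and, in HEK293T, FANCF, which have the fewest counts.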
